A study of Mus musculus with 31 samples.

Results

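Mature microRNAs were counted in the right hippocampus of 5-HTT knockout mice that received water (KO-water, n = 6) and of wild-type mice that received water (WT-water, n = 7). These 13 libraries are all the water libraries among the 31 of the series, and each is labelled as a biological replicate of its own. Both groups are of the C57Bl/6 J strain and neither received exercise or corticosterone, which were given to the other groups for 4 weeks; age, sex and the knockout allele were not stated in the labels. The comparison asks how the loss of the serotonin transporter bears on hippocampal microRNAs when no treatment is given. Only mature microRNAs were counted, so the level of the transporter mRNA was not available to check the genotype labels.

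The serotonin transporter (5-HTT, encoded by Slc6a4) returns released serotonin to the axon and is the target of many antidepressants. The hippocampus receives serotonergic fibres from the raphe nuclei, and its pyramidal and granule cells carry several serotonin receptors. A mature microRNA is a short RNA cut from a hairpin; loaded into an Argonaute protein, it pairs with messenger RNAs mainly through its seed, bases 2 to 8, and lowers their translation or stability. In bulk tissue, fewer cells of a type and less RNA per cell cannot be told apart.

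The microRNAs on which the comparison turns are shown first, because which arm of a hairpin and which seed differ is part of the result. Capitals mark the seed, sequences run 5′ to 3′ and come from RefSeq (GRCm38.p6), which held a sequence for 469 of the 545 microRNAs tested. The first 2 had every KO-water library above every WT-water library after TMM scaling of the libraries (not without it), and the next 4 had every KO-water library below.
miR-218-5p: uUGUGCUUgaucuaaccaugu
miR-132-5p: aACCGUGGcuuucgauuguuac
miR-181b-1-3p: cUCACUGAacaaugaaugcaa
miR-499-5p: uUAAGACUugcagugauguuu
miR-362-3p: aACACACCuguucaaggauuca
miR-219a-5p: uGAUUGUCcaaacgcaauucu
The next 4 had small p-values and groups that overlapped.
miR-203-3p: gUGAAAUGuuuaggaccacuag
miR-149-5p: uCUGGCUCcgugucuucacuccc
miR-342-3p: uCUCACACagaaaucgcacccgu
miR-146a-5p: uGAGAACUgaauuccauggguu
The last pair share the seed AGCAGCA and belong to the miR-15/16 family, which has been reported to repress the serotonin transporter.
miR-16-5p: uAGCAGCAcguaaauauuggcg
miR-195a-5p: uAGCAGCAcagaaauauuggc

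Total counts ran from 1277046 to 3254739 per library in KO-water and from 1639753 to 4052174 in WT-water, and between 853 and 1034 microRNAs had at least 1 count. Values below are counts per 1e6 counts of the library (CPM) after TMM scaling. The hippocampal neuronal microRNA miR-124-3p held 24.3% ± 1.23 of all counts in KO-water and 24.8% ± 2.82 in WT-water (SD, n = 6 and 7; exact two-sided permutation p = 0.668, adjusted over 4 library values 0.668). Total count (p = 0.167, adjusted 0.333) and the number detected (924 ± 42.9 in KO-water and 978 ± 44.6 in WT-water, p = 0.0501, adjusted 0.200) were compared by the same exact permutation test. Hindbrain and spinal cord microRNAs were close to 0, with a summed level of 2.52 to 18.5 CPM per library in KO-water and 5.73 to 22.2 CPM in WT-water.

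The 6 KO-water libraries fell into 2 sets, which bears on every result. KO-water 3, 4 and 6 are the KO-water libraries that the authors also placed in their deposited table of both genotypes under water; KO-water 1, 2 and 5 are not in that table, and all 6 stand in both tables that set knockout water against a treated knockout group. On the first principal component, with 61.8% of the variance, KO-water 3, 4 and 6 scored 15.2 to 22.2, KO-water 1, 2 and 5 scored -4.60 to -4.33 and WT-water scored -7.99 to -4.62. The second component, with 10.9%, set KO-water 5 apart together with WT-water 4 and 7. Those 3 libraries also had the highest counts of the choroid plexus microRNA miR-204-5p, 18652 CPM in KO-water 5, and 16948 and 21237 CPM in WT-water 4 and 7. What parts the 2 sets of KO-water libraries is not given by the labels and was not tested.

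**Figure D1:**
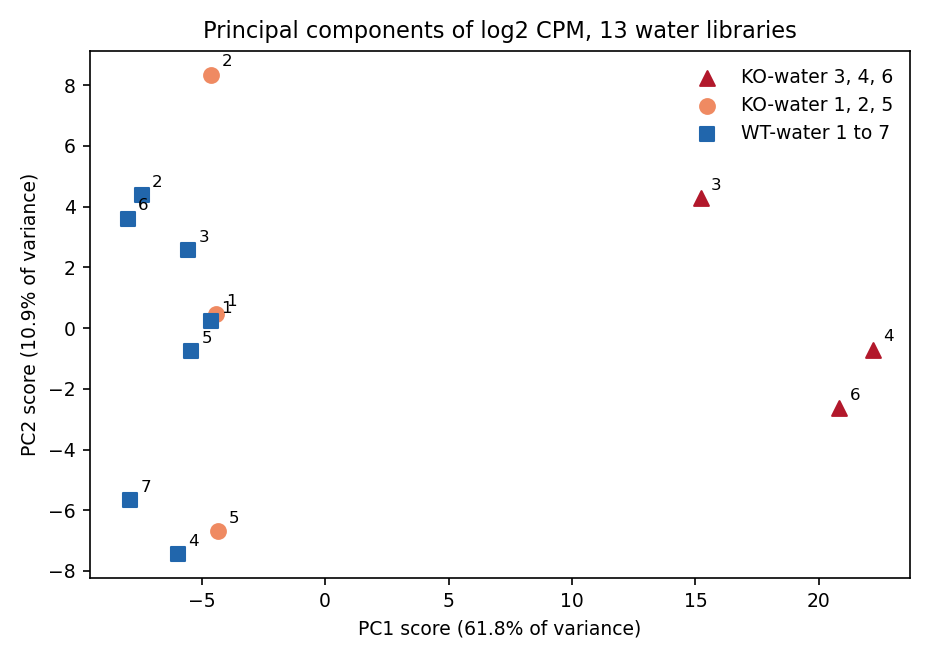
First 2 principal components of log2 CPM over the 13 water libraries; each point is 1 library, numbered by replicate (triangles, KO-water 3, 4 and 6; circles, KO-water 1, 2 and 5; squares, WT-water). KO-water 3, 4 and 6 lie at 15.2 to 22.2 on the first component, while the other 10 libraries lie below 0.

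With all 6 KO-water libraries, no microRNA passed an adjusted p below 0.05: edgeR's quasi-likelihood test with Benjamini-Hochberg adjustment called 0 of 545 microRNAs (0%), 0 higher and 0 lower. The lowest adjusted p was 0.0555, shared by 13 microRNAs, 12 of them at a higher level in KO-water. At an unadjusted p below 0.05 there were 179 microRNAs (32.8%), 111 at a higher level (20.4%) and 68 at a lower level (12.5%) in KO-water. DESeq2 called 115 microRNAs on the same libraries, 87 higher and 28 lower. Fits that left out 1 library called between 0 and 161: leaving out KO-water 1 gave 81 higher and 37 lower calls, KO-water 2 gave 88 and 20 and KO-water 5 gave 100 and 61, and leaving out any of the other 10 libraries gave 0. No microRNA below is therefore described as changed over all 6 libraries; values, intervals and adjusted p are given.

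The leading microRNA at a higher level in KO-water was miR-218-5p, a neuronal microRNA encoded in introns of the axon guidance genes Slit2 and Slit3 at chr5:48223942-48224051 (+ strand) and chr11:35616816-35616925 (+ strand) (GRCm38). It had 18974, 37889.7 and 72866 CPM in KO-water (lowest, median and highest of 6), against 13225, 17060.1 and 18316 CPM in WT-water (of 7). The lowest KO-water value, 18974 CPM in KO-water 1, lay just above the highest WT-water value, 18316 CPM, so the groups did not overlap after scaling, although they did without the scaling factors. The log2 fold change was 1.37 ± 0.31 (SE; 95% interval 0.72 to 2.03), with an edgeR adjusted p of 0.0555. Its level was 65404 ± 11618 CPM in KO-water 3, 4 and 6, 21489.5 ± 2403 CPM in KO-water 1, 2 and 5 and 16754 ± 1740.3 CPM in WT-water (SD, n = 3, 3 and 7). Of its passenger arms, miR-218-2-3p had a log2 fold change of -0.54 ± 0.21 and miR-218-1-3p of 0.06 ± 0.27.

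MiR-342-3p, hosted by an intron of Evl, a regulator of actin filaments, had the largest fold change of the leading microRNAs at a higher level, with 2336, 6734 and 14816 CPM in KO-water (lowest, median and highest of 6), against 1931, 2449 and 2921 CPM in WT-water (of 7). Only KO-water 3, 4 and 6 lay above the WT-water range, and the other 3 KO-water libraries lay inside it. The fold change was 1.68 ± 0.42 on the log2 scale (edgeR adjusted p = 0.0555), and with KO-water 1, 2 and 5 alone it was 0.08 (adjusted p = 0.933). MiR-149-5p, from an intron of the heparan sulphate proteoglycan gene Gpc1, had 1624, 2295 and 3612 CPM in KO-water (lowest, median and highest of 6), against 1150.4, 1347 and 1703 CPM in WT-water (of 7). Its lowest KO-water library lay under the highest WT-water library, and 4 of 6 lay above the WT-water range.

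Among the other leading microRNAs, miR-203-3p, best known from the epidermis, averaged 124 ± 45.5 CPM in KO-water and 63.2 ± 9.18 CPM in WT-water, a log2 fold change of 0.96 ± 0.22. MiR-425-5p, whose hairpin lies beside that of miR-191 on chromosome 9, averaged 815 ± 282 CPM in KO-water and 471 ± 32.3 CPM in WT-water (0.79 ± 0.20). For both, 5 of 6 KO-water libraries exceeded every WT-water library. MiR-551b-3p averaged 8505 ± 2969.8 CPM in KO-water and 4805 ± 669.5 CPM in WT-water (0.82 ± 0.20), and miR-708-5p averaged 3720.3 ± 2023 CPM in KO-water and 1699 ± 194 CPM in WT-water (1.13 ± 0.29). MiR-935, which lies in an exon of Cacng8, a regulator of AMPA receptors, averaged 729.8 ± 433 CPM in KO-water and 304 ± 16.6 CPM in WT-water (1.26 ± 0.32). MiR-466d-5p, one of many near-identical copies of a repeat family, had a log2 fold change of 1.28 ± 0.32 from levels under 23 CPM in every library, and how reads were assigned among its copies is not stated. All 10 leading microRNAs at a higher level, miR-532-5p among them, shared the edgeR adjusted p of 0.0555.

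**Figure D2:**
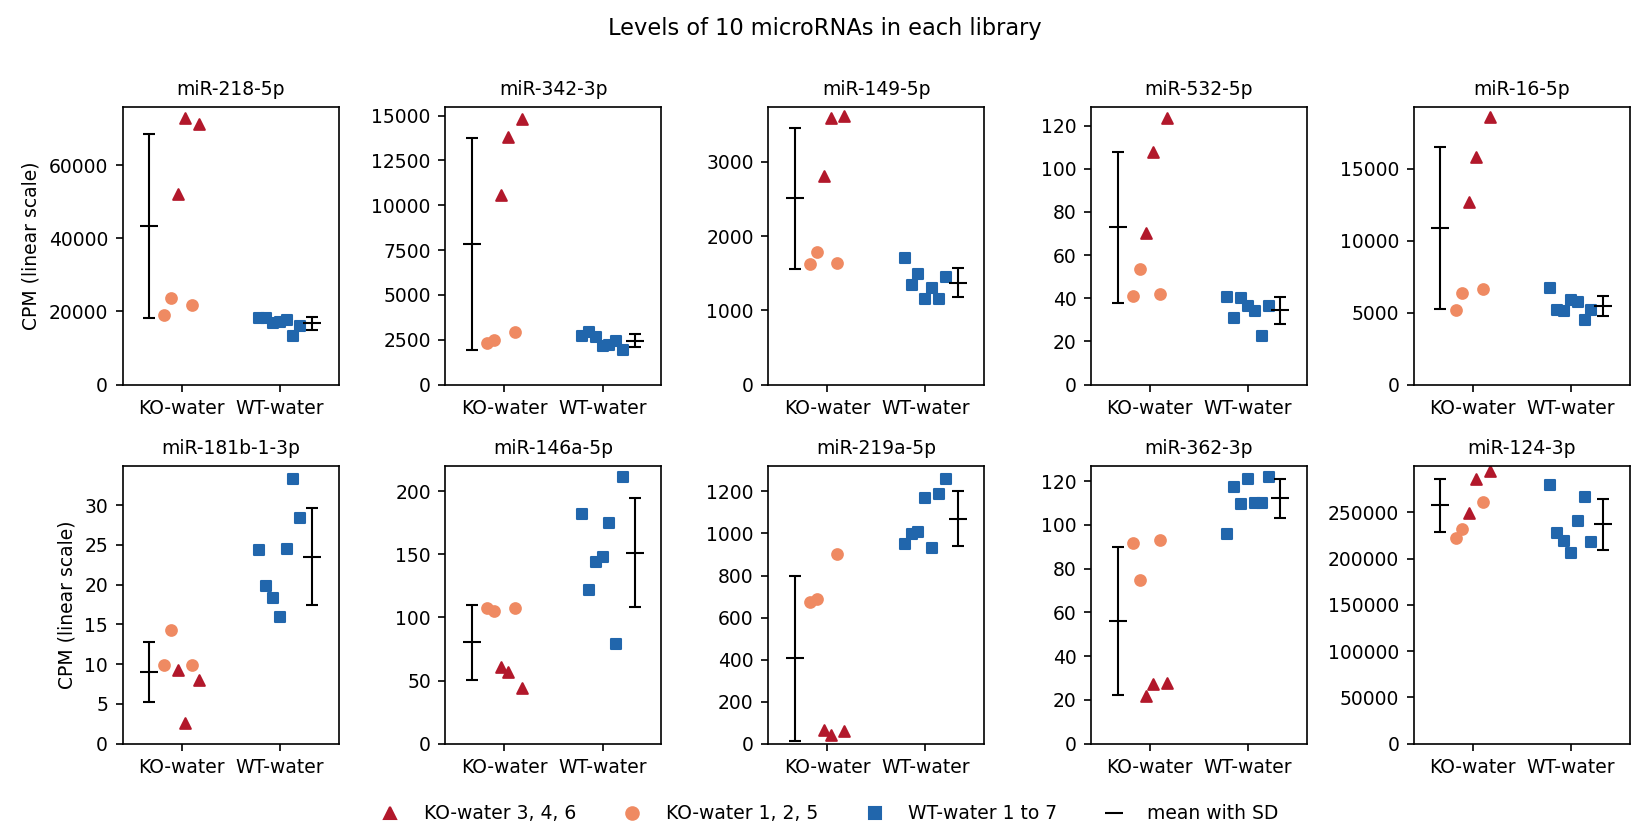
Level (CPM, linear scale from 0) of 10 microRNAs in each library, KO-water on the left and WT-water on the right of each panel, with the group mean and SD as a bar beside the points. In 9 panels KO-water 3, 4 and 6 lie outside the WT-water range, as KO-water 1, 2 and 5 also do for miR-218-5p, miR-532-5p, miR-181b-1-3p, miR-219a-5p and miR-362-3p, for the first 2 only with TMM scaling; in the last panel, miR-124-3p, the groups overlap.

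The smallest p of all belonged to miR-181b-1-3p, the passenger arm of a miR-181b hairpin at chr1:137966639-137966718 (+ strand). It had 2.65, 9.54 and 14.2 CPM in KO-water (lowest, median and highest of 6), against 15.9, 24.3 and 33.3 CPM in WT-water (of 7). All 6 KO-water libraries lay below all 7 WT-water libraries, at low counts: 120 counts over the 6 KO-water libraries and 466 over the 7 WT-water libraries. The log2 fold change was -1.34 ± 0.28 (95% interval -1.93 to -0.75, edgeR adjusted p = 0.0555). With KO-water 1, 2 and 5 alone the log2 fold change was -1.05 (edgeR adjusted p = 0.610). MiR-181b-1-3p was chosen on all 6 KO-water libraries, so the shared sign is no separate evidence. The guide arm miR-181b-5p, which 2 hairpins encode, had a log2 fold change of -0.17 ± 0.14 (adjusted p = 0.376).

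MiR-146a-5p, a brake on innate immune signalling induced by NF-kappaB, had 43.8, 83.04 and 107.8 CPM in KO-water (lowest, median and highest of 6), against 79.1, 148 and 211 CPM in WT-water (of 7). WT-water 6, the lowest of its group, overlapped the KO-water range, and all other WT-water libraries lay above every KO-water library. Its log2 fold change was -0.91 ± 0.26 (edgeR adjusted p = 0.0598). MiR-146b-5p, which shares its seed GAGAACU, averaged 122 CPM in KO-water and 97.4 CPM in WT-water, a log2 fold change of 0.32 ± 0.16 (adjusted p = 0.181).

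MiR-7b-3p, a passenger arm whose guide miR-7b-5p belongs to a family enriched in neuroendocrine cells, averaged 99.1 ± 43.3 CPM in KO-water and 215 ± 81.6 CPM in WT-water (-1.11 ± 0.31); the guide had a log2 fold change of -0.35 ± 0.14 (adjusted p = 0.110). MiR-298-5p, from the imprinted Nespas locus, averaged 165 ± 40.6 CPM in KO-water and 254 ± 55.2 CPM in WT-water (-0.62 ± 0.19). MiR-199b-5p averaged 13.5 ± 5.18 CPM in KO-water and 27.8 ± 11.4 CPM in WT-water (-1.01 ± 0.31). MiR-143-5p, the passenger arm of a smooth muscle microRNA, averaged 23.7 ± 12.3 CPM in KO-water and 64.0 ± 43.9 CPM in WT-water (-1.40 ± 0.42), with the WT-water mean raised by 160.5 CPM in WT-water 6 alone. MiR-3084-3p, encoded by hairpins in Cbwd1 and Eif3a introns, averaged 11.7 ± 11.3 CPM in KO-water and 31.8 ± 11.7 CPM in WT-water (-1.40 ± 0.45).

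The arms of miR-677, from an intron of the ATP synthase subunit gene Atp5b, were nearly equal in every library, with a 5p to 3p ratio of 0.937 to 1.00. Their raw counts (5p and 3p) were 679 and 689 over all KO-water and 3254 and 3264 over all WT-water libraries. The 2 arms are therefore not separate results, here or in the counts of microRNAs below. Why they were so close was not tested. MiR-677-5p had 5.30, 38.2 and 115 CPM in KO-water (lowest, median and highest of 6), against 82.2, 144 and 388 CPM in WT-water (of 7). KO-water 1 and 2 lay inside the WT-water range, and the WT-water libraries themselves differed widely. The log2 fold change of -1.89 ± 0.60 therefore had a 95% interval of -3.15 to -0.62, and miR-677-3p was at -1.87 ± 0.59. MiR-499-5p, hosted by the myosin gene Myh7b and known from heart and slow muscle, had 0, 2.04 and 5.27 CPM in KO-water (lowest, median and highest of 6), against 6.21, 7.91 and 11.9 CPM in WT-water (of 7). The groups did not overlap, but its counts were few, 35 in all KO-water and 167 in all WT-water libraries, and KO-water 4 and 6 had none. Its fitted log2 fold change was -1.65 ± 0.48 (adjusted p = 0.0598).

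The 20 leading microRNAs are the 10 with the smallest p at a higher level and the 10 at a lower level in KO-water. They are thus not the 20 smallest p of all. Their fold change had the same sign in both sets of KO-water libraries and was larger with KO-water 3, 4 and 6 for all 20. Both sets were set against the same 7 WT-water libraries, and choosing on all 6 KO-water libraries favours microRNAs of this kind, so the agreement in sign is no separate evidence. Of the 60 values of these microRNAs in KO-water 1, 2 and 5, 30 lay inside the WT-water range. A fit of KO-water 3, 4 and 6 alone called 192 of 581 microRNAs higher (33%) and 162 lower (27.9%), and a fit of KO-water 1, 2 and 5 alone called 0 of 587 (0%), with 24 (4.09%) at an unadjusted p below 0.05. Among those 24, 10 were at a higher and 14 at a lower level in KO-water.

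**Figure D3:**
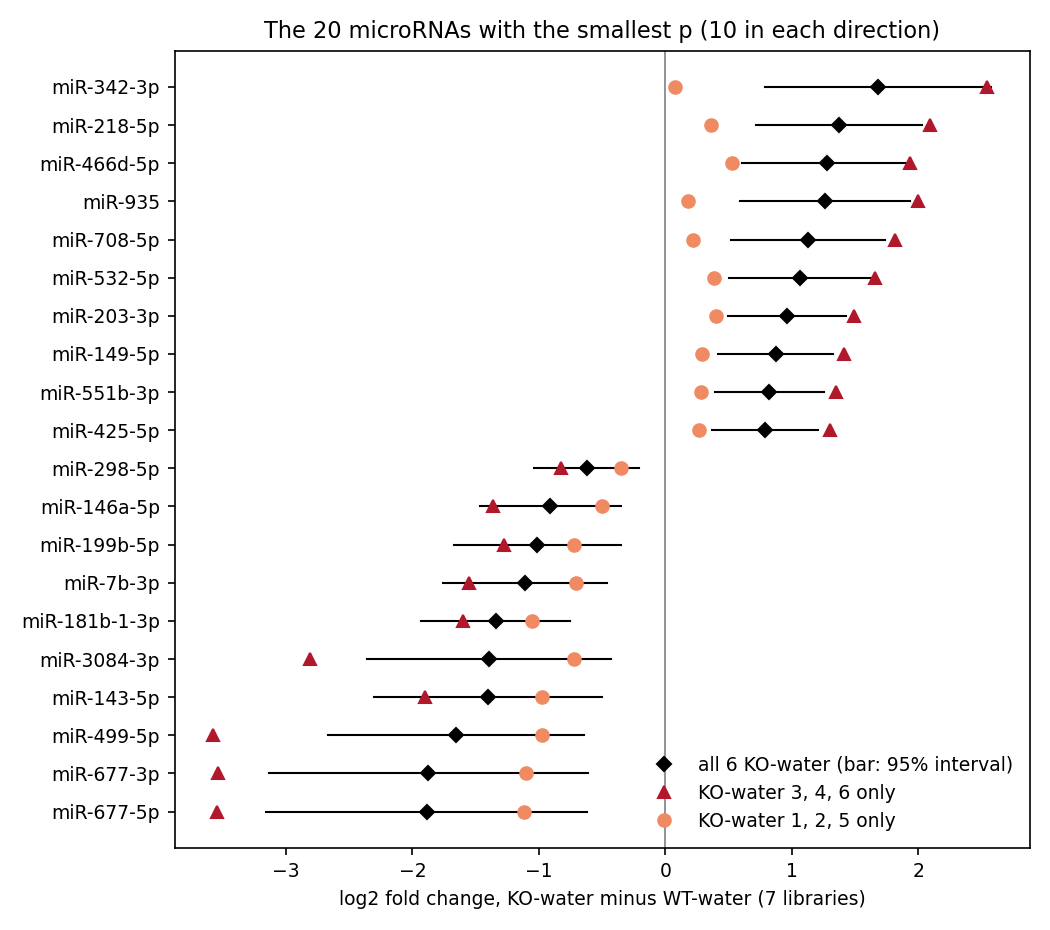
Log2 fold change, KO-water minus WT-water, of the 20 leading microRNAs. Diamonds with bars are all 6 KO-water libraries and their 95% interval. Triangles are KO-water 3, 4 and 6 only, and circles are KO-water 1, 2 and 5 only. For all 20 the triangle lies farther from 0 than the circle, and no circle crosses 0.

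Groups that did not overlap were rare: 3 microRNAs of 545 lay higher in every KO-water library (0.55%) and 4 lay lower in every KO-water library (0.734%). Besides miR-218-5p, miR-181b-1-3p and miR-499-5p, these were miR-532-5p, miR-132-5p, miR-362-3p and miR-219a-5p. Without the TMM scaling factors, a setting chosen after seeing the data, 0 microRNAs lay higher in every KO-water library and 5 lay lower, so the separation of miR-218-5p, miR-532-5p and miR-132-5p rested on the scaling. Leaving out KO-water 5 gave 11 higher and 12 lower, and over all fits that left out 1 library the counts ran from 3 to 11 higher and from 4 to 12 lower. MiR-219a-5p, which promotes the maturation of oligodendrocytes, had 43.3, 369 and 905 CPM in KO-water (lowest, median and highest of 6), against 930.2, 1008 and 1257 CPM in WT-water (of 7). KO-water 3, 4 and 6 had 63.9, 43.3 and 62.0 CPM, and KO-water 1, 2 and 5 had 675, 690.3 and 905 CPM. With so wide a spread the log2 fold change of -1.39 ± 0.62 had a 95% interval of -2.71 to -0.08 and an edgeR adjusted p of 0.125. With KO-water 1, 2 and 5 alone it was -0.51 (edgeR adjusted p = 0.610), the second smallest p of that fit after miR-181b-1-3p. The other arm of its miR-219a-2 hairpin, miR-219a-2-3p, was at -0.13 ± 0.13 over all 6 KO-water libraries (edgeR adjusted p = 0.438).

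MiR-132-5p, the less abundant arm of a hairpin induced by CREB in active neurons, had 795, 821 and 1078 CPM in KO-water (lowest, median and highest of 6), against 639, 711 and 784 CPM in WT-water (of 7). The gap between the groups was narrow, 795 CPM in the lowest KO-water against 784 CPM in the highest WT-water library, and the log2 fold change was 0.30 ± 0.12 (95% interval 0.04 to 0.56, edgeR adjusted p = 0.112). The main arm miR-132-3p averaged 2490.4 ± 513 CPM in KO-water and 2568 ± 404 CPM in WT-water, and its groups overlapped, with a log2 fold change of -0.04 ± 0.15 (95% interval -0.37 to 0.28). MiR-212-3p, made from the same transcript and with the same seed, averaged 1190.2 ± 226 CPM in KO-water and 1312 ± 165 CPM in WT-water, a log2 fold change of -0.14 ± 0.14 (95% interval -0.44 to 0.16).

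Both remaining members of this group, miR-532-5p and miR-362-3p, come from a cluster of hairpins in an intron of the chloride transporter gene Clcn5 on the X chromosome, at chrX:7241982-7242046 (- strand) for miR-362. MiR-532-5p had 40.98, 61.7 and 123.4 CPM in KO-water (lowest, median and highest of 6), against 22.6, 36.5 and 40.7 CPM in WT-water (of 7). The lowest KO-water value was close to the highest WT-water value, and the log2 fold change was 1.07 ± 0.27 (adjusted p = 0.0555). The other arm of its own hairpin, miR-532-3p, averaged 68.8 ± 33.2 CPM in KO-water and 124 ± 28.5 CPM in WT-water, a log2 fold change of -0.84 ± 0.28 (adjusted p = 0.0721). MiR-362-3p had 22.0, 51.2 and 93.2 CPM in KO-water (lowest, median and highest of 6), against 95.97, 110.2 and 122 CPM in WT-water (of 7). No KO-water library reached the lowest WT-water library, and the log2 fold change was -0.99 ± 0.32 (adjusted p = 0.0717). Further along the cluster, miR-188-3p was at -0.84 ± 0.28 (adjusted p = 0.0717), miR-188-5p at -0.55 ± 0.26 (adjusted p = 0.159), miR-500-3p at -0.43 ± 0.32 (adjusted p = 0.327) and miR-501-3p at 0.15 ± 0.15 (adjusted p = 0.441). Of the scarcer arms of these hairpins, miR-501-5p was at -0.57 ± 0.33 (adjusted p = 0.238) and miR-362-5p at -0.78 ± 0.62 (adjusted p = 0.353), with 7.71 and 7.19 CPM on average in KO-water and 11.8 and 12.9 CPM in WT-water. Opposite signs of the arms of 1 hairpin were thus measured for miR-532, and also for miR-708, with miR-708-3p at -0.78 ± 0.31 (adjusted p = 0.0962). They were not confined to this cluster, and such hairpins were not counted over all microRNAs. MiR-218-5p (1.37) and miR-218-2-3p (-0.54) differed in sign, as did miR-540-3p (0.74) and miR-540-5p (-1.01), and miR-337-5p (0.33) and miR-337-3p (-0.53). The arms of miR-501 also had opposite signs, but neither passed an unadjusted p below 0.05. The arms of miR-338 and those of miR-144, described below, differed in sign as well. Both arms of miR-425 (miR-425-3p at 0.76 ± 0.23), miR-551b (miR-551b-5p at 1.41 ± 0.42) and miR-342 (miR-342-5p at 0.58 ± 0.22) had positive fold changes. MiR-329-3p, which shares the seed ACACACC with miR-362-3p, averaged 326 CPM in KO-water and 538 CPM in WT-water (-0.72 ± 0.27, adjusted p = 0.0867).

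The miR-15/16 and miR-135 families have been reported to act on the serotonin transporter, the gene the knockout removes. MiR-16-5p, made from hairpins in Dleu2 and Smc4, had 5158, 9688 and 18582 CPM in KO-water (lowest, median and highest of 6), against 4488, 5175 and 6707 CPM in WT-water (of 7). KO-water 3, 4 and 6 lay above the WT-water range and the other 3 inside it. Its log2 fold change was 0.99 ± 0.27 (95% interval 0.41 to 1.58, edgeR adjusted p = 0.0598), and 0.15 with KO-water 1, 2 and 5 alone. MiR-195a-5p averaged 2661 ± 1183 CPM in KO-water and 1565 ± 197 CPM in WT-water (0.77 ± 0.24, adjusted p = 0.0717). Other microRNAs with the same seed were at or below 0: miR-497a-5p was at -0.46 ± 0.15 (adjusted p = 0.0717), miR-15b-5p at -0.46 ± 0.27 (adjusted p = 0.240), miR-15a-5p at -0.14 ± 0.17 (adjusted p = 0.538) and miR-322-5p at 0.00 ± 0.16 (adjusted p = 0.996). MiR-135a-5p averaged 1797 ± 917 CPM in KO-water and 1291 ± 217 CPM in WT-water, a log2 fold change of 0.48 ± 0.27 over all 6 libraries (95% interval -0.10 to 1.05), which was 1.11 with KO-water 3, 4 and 6 and -0.32 with KO-water 1, 2 and 5. Of the 8 members of this list, 0 were called by edgeR, 3 were at a higher (37.5%) and 1 at a lower level (12.5%) at an unadjusted p below 0.05, against 20.4% and 12.5% of all 545 microRNAs tested, and the median log2 fold change was 0.24, against -0.08 over all microRNAs tested. For miR-16-5p and miR-195a-5p the difference rested on KO-water 3, 4 and 6.

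MicroRNAs reported to target the glucocorticoid receptor, the main sensor of corticosterone, had a median of 0.12 over 5 tested members, against -0.08 over all microRNAs tested. At an unadjusted p below 0.05 there were 0 of these 5, against 32.8% of all 545 in either direction, and so short a list says little. MiR-18a-5p had 114, 135 and 187 CPM in KO-water (lowest, median and highest of 6), against 98.3, 113 and 154 CPM in WT-water (of 7). The groups overlapped, and the log2 fold change was 0.30 ± 0.16 (95% interval -0.03 to 0.63, adjusted p = 0.182). MiR-124-3p, which keeps neurons in their differentiated state, had 222636, 254961 and 295364 CPM in KO-water (lowest, median and highest of 6), against 206212, 228255 and 279628 CPM in WT-water (of 7). Its log2 fold change was 0.12 ± 0.13, with a 95% interval of -0.17 to 0.41. MiR-101a-3p was at -0.18 ± 0.17 (adjusted p = 0.417).

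Of 24 neuron-enriched microRNAs, 0 were called by edgeR, and 5 were at a higher (20.8%) and 5 at a lower level (20.8%) at an unadjusted p below 0.05, with a median log2 fold change of -0.19. Over all microRNAs tested the shares were 20.4% and 12.5%, so the share at a higher level was close to the background. MiR-138-5p, a regulator of dendritic spine size, had 28415, 53908 and 73459.8 CPM in KO-water (lowest, median and highest of 6), against 28955, 32884 and 36339.9 CPM in WT-water (of 7). Its log2 fold change was 0.63 ± 0.20 (adjusted p = 0.0717), with 4 KO-water libraries above the WT-water range and 1 below it. MiR-128-3p, which restrains neuronal excitability, had the opposite sign, with 18590.5, 28164 and 52395 CPM in KO-water (lowest, median and highest of 6), against 43902, 48781 and 58306 CPM in WT-water (of 7) and -0.59 ± 0.23 on the log2 scale (adjusted p = 0.0962). MiR-129-2-3p averaged 3271 ± 628 CPM in KO-water and 2238 ± 402 CPM in WT-water (0.55 ± 0.16, adjusted p = 0.0598); unlike most of the leading microRNAs it had nearly the same mean in both sets, 3319.7 CPM in KO-water 3, 4 and 6 and 3222 CPM in KO-water 1, 2 and 5. MiR-9-5p averaged 32853 ± 12620.4 CPM in KO-water and 39798 ± 8453 CPM in WT-water (-0.28 ± 0.24, 95% interval -0.79 to 0.23), and miR-34a-5p averaged 857 ± 173.9 CPM in KO-water and 822 ± 120.0 CPM in WT-water (0.06 ± 0.16, 95% interval -0.27 to 0.39). Of 16 activity-regulated microRNAs, 10 had a positive fold change, and at an unadjusted p below 0.05 4 were at a higher level (25%, against 20.4% of all), among them miR-134-5p (0.75 ± 0.23) from the imprinted chromosome 12 cluster, and 2 at a lower level (12.5%, the same as of all), miR-146a-5p and miR-329-3p. MiR-191-5p, also on that list, was at 0.65 ± 0.31 over all 6 libraries, with 1.35 in KO-water 3, 4 and 6 and -0.32 in KO-water 1, 2 and 5.

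Markers of other cells were counted beside these results at an unadjusted p below 0.05, at which 20.4% of all 545 microRNAs were at a higher and 12.5% at a lower level. Of 7 tested oligodendrocyte microRNAs, 2 were at a lower level (28.6%), miR-219a-5p and miR-338-3p (-0.87 ± 0.34), and 1 at a higher level (14.3%), miR-338-5p (0.61 ± 0.24), which comes from the same hairpin as miR-338-3p. MiR-219a-2-3p, the other arm of the miR-219a-2 hairpin, averaged 894 CPM in KO-water and 979 CPM in WT-water (-0.13 ± 0.13, edgeR adjusted p = 0.438). With KO-water 3, 4 and 6 alone it was at 0.08, where miR-219a-5p was at -4.10. MiR-23a-3p, also on the list, was at -0.15 ± 0.12 (95% interval -0.41 to 0.11). The summed level of the list was 6267 to 11171 CPM in KO-water and 10496 to 12627 CPM in WT-water. Of 9 microglia and immune cell microRNAs, 4 were at a higher level (44.4%), miR-223-3p (1.15), miR-142a-5p (0.64), miR-150-5p (1.09 ± 0.31) and miR-342-3p, and 1, miR-146a-5p, at a lower level (11.1%). The others were miR-142a-3p (0.05), miR-155-5p (0.12), miR-21a-5p (0.13) and miR-146b-5p (0.32). The summed level was 7134 to 25568 CPM in KO-water and 6618 to 8563 CPM in WT-water. MiR-342-3p and miR-150-5p were the most abundant members, averaging 7824 and 4942 CPM in KO-water and 2441 and 2322 CPM in WT-water. The vessel list summed to 13444 to 30751 CPM in KO-water and 13308 to 15786 CPM in WT-water; 3 of its 9 tested members were at a higher level (33.3%) and 0 at a lower level, among the 3 the endothelial miR-126a-3p (0.75 ± 0.27), while miR-126a-5p was at 0.49 ± 0.26 (adjusted p = 0.198). For miR-126a-3p KO-water 3, 4 and 6 averaged 13165 CPM, KO-water 1, 2 and 5 averaged 5184 CPM and WT-water 5462 CPM. The part of these cell types in the other results was not tested.

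Red blood cell microRNAs differed in sign from one another. MiR-451a, the most abundant of them, had 464, 814 and 1504 CPM in KO-water (lowest, median and highest of 6), against 1077, 1420.2 and 2323 CPM in WT-water (of 7), a log2 fold change of -0.85 ± 0.30 (adjusted p = 0.0806), while miR-486b-5p was at 1.00 (adjusted p = 0.0598) and miR-144-5p at 0.82 (adjusted p = 0.0755) against miR-144-3p at -0.56 ± 0.32. At an unadjusted p below 0.05, 3 of the 5 members were at a higher (60%, against 20.4% of all) and 1 at a lower level (20%, against 12.5% of all). Their summed level was 617 to 1653 CPM in KO-water and 1195 to 2485 CPM in WT-water. Choroid plexus and ciliated cell microRNAs summed to 7794 to 23292 CPM in KO-water and 7291 to 26748 CPM in WT-water, 1 of 9 tested members passed an unadjusted p below 0.05 (miR-449a-5p at 0.77; 11.1%, against 32.8% of all in either direction), and miR-211-3p was at 0 in all 13 libraries. MiR-204-5p, their main member, was at -0.29 ± 0.42 (95% interval -1.19 to 0.60), and miR-34b-5p at -0.36 ± 0.33. Among epithelial and sensory microRNAs, miR-182-5p was at 1.496 (adjusted p = 0.149), miR-200a-3p at -0.93 ± 0.34 (adjusted p = 0.0867) and miR-429-3p at -0.44 ± 0.38, at a summed 37.1 to 138 CPM in KO-water and 61.02 to 229 CPM in WT-water. Of 3 tested muscle microRNAs only miR-499-5p passed an unadjusted p below 0.05, at a lower level (33.3%, against 12.5% of all). MiR-1a-3p was at 0.05 ± 0.14 (95% interval -0.25 to 0.36). The only hindbrain and spinal cord microRNA tested, miR-10a-5p, was at -0.48 ± 0.43 (adjusted p = 0.410).

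**Figure D4:**
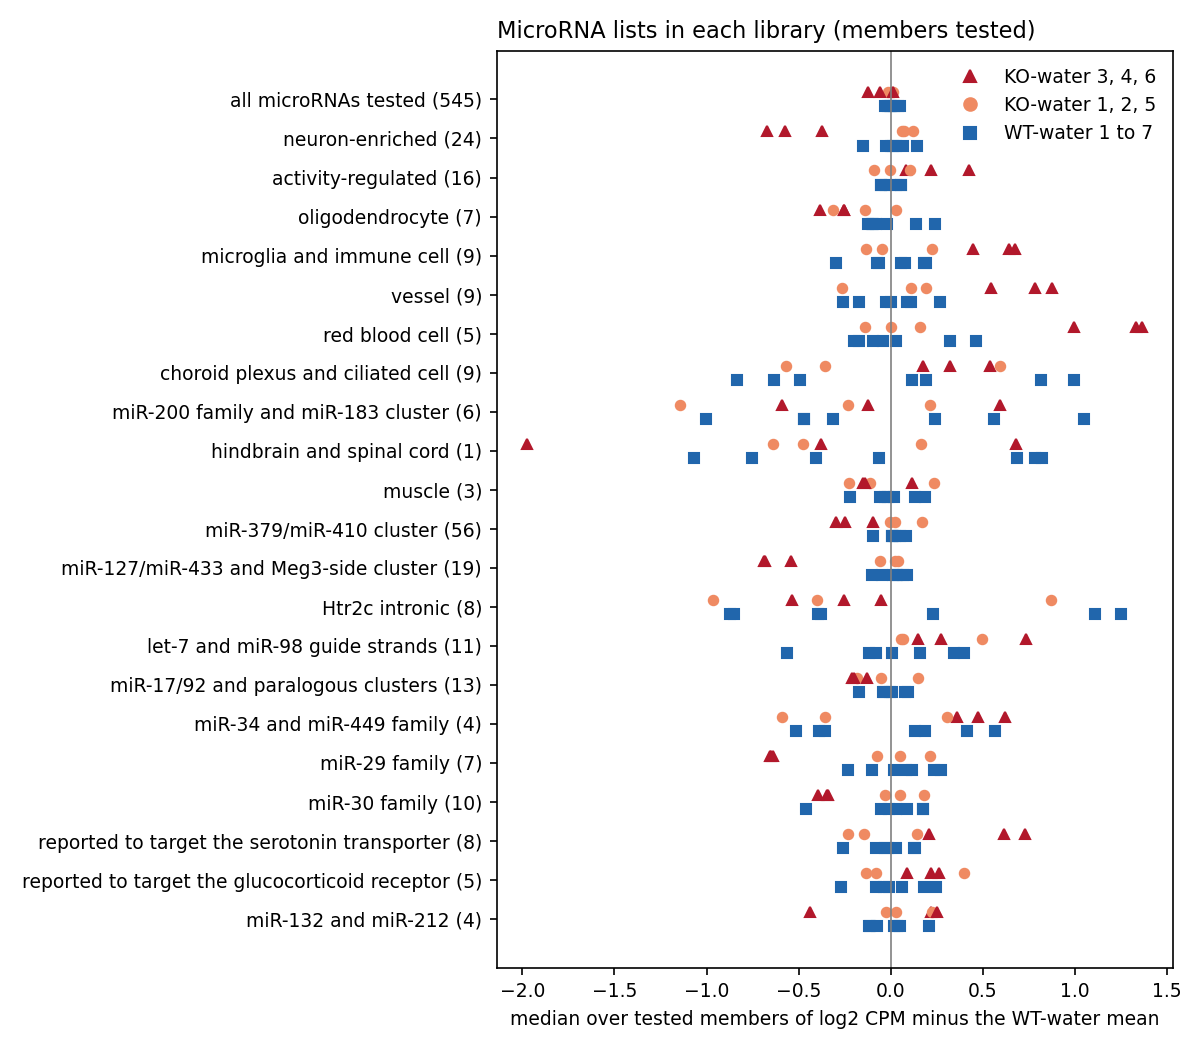
For each list (number of members tested in brackets), the median over members of log2 CPM minus the WT-water mean, 1 point per library, with KO-water (triangles and circles) above WT-water (squares) in each row. For the red blood cell, vessel, and microglia and immune cell lists KO-water 3, 4 and 6 lie to the right of every WT-water library. KO-water 1, 2 and 5 lie at or near the WT-water libraries there. KO-water 3, 4 and 6 also lie to the right for the activity-regulated list and that reported to target the serotonin transporter, as does KO-water 5. KO-water 3, 4 and 6 lie to the left of every WT-water library for the neuron-enriched, oligodendrocyte, Meg3-side and miR-29 lists. For the oligodendrocyte list KO-water 1 and 2 lie to the left as well. Among red blood cell members, miR-451a (-1.54) and miR-144-3p (-1.20) had negative log2 fold changes with KO-water 3, 4 and 6, the others positive ones. Over all 545 microRNAs tested the libraries lie between -0.125 and 0.0502.

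Several families were described as wholes. Of the 11 let-7 and miR-98 guide strands, which restrain cell growth, 10 had a positive fold change, as did 248 of all 545, and 4 were at a higher level at an unadjusted p below 0.05 (36.4%, against 20.4% of all): let-7d-5p (0.63), let-7b-5p (0.55), let-7c-5p (0.45 ± 0.20) and let-7e-5p (0.37). Let-7f-5p was at 0.30 ± 0.19, and the median of the family was 0.27 over all KO-water libraries, 0.50 with KO-water 3, 4 and 6 and 0.20 with KO-water 1, 2 and 5. Let-7 members differ by few bases, and how reads were divided among them is not stated either. The miR-29 family had a median of -0.20 and 1 of 7 members at an unadjusted p below 0.05, at a lower level (14.3%, against 12.5% of all); its main member miR-29b-3p averaged 64371 ± 26544 CPM in KO-water and 68386 ± 11169.8 CPM in WT-water (-0.09 ± 0.24), with 3 KO-water libraries below and 2 above the WT-water range. MiR-29a-3p averaged 37281 ± 16421 CPM in KO-water and 43711 ± 17480.2 CPM in WT-water (-0.23 ± 0.43); WT-water 5 had only 4237 CPM where the other 6 WT-water libraries had at least 47887 CPM, and without it the log2 fold change was -0.42. The miR-30 family had a median of -0.13, with miR-30d-5p at -0.42 ± 0.22 and miR-30c-5p at 0.06 ± 0.15. The miR-17/92 and paralogous clusters, known for promoting proliferation, had a median of -0.18, with miR-106b-5p at -0.67 ± 0.34 and miR-19b-3p at -0.22 ± 0.14. The miR-34 and miR-449 family had a median of 0.17 over 4 members, with miR-34c-5p at 0.28 ± 0.36 and 1 member, miR-449a-5p, at a higher level at an unadjusted p below 0.05 (25%, against 20.4% of all).

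The imprinted Dlk1-Dio3 locus on chromosome 12 expresses its microRNAs from the maternal allele in brain. Of 56 tested microRNAs of its miR-379/miR-410 cluster, 10 were at a higher (17.9%, against 20.4% of all) and 1 at a lower level (1.79%, against 12.5% of all) at an unadjusted p below 0.05, with a median of -0.09, near the -0.08 of all microRNAs tested. Its most abundant members were at 0.03 ± 0.14 (miR-376a-3p) and -0.16 ± 0.15 (miR-376b-3p). Of 19 microRNAs on the Meg3 side, 7 had a positive and 12 a negative fold change, with a median of -0.26. At an unadjusted p below 0.05, 4 were at a higher (21.1%, against 20.4% of all) and 5 at a lower level (26.3%, against 12.5% of all). MiR-434-3p had 1764, 5432 and 10054 CPM in KO-water (lowest, median and highest of 6), against 8213, 9050.3 and 10602 CPM in WT-water (of 7), and KO-water 3, 4 and 6 at 1970.5 CPM lay far below KO-water 1, 2 and 5 at 9210.2 CPM. MiR-136-5p was at -0.20 ± 0.19. The introns of Htr2c, the serotonin 2C receptor gene, carry a further cluster, of which 8 microRNAs were tested: miR-764-5p was at 1.00 (adjusted p = 0.0853), miR-1298-3p at -1.08 (adjusted p = 0.0949), and miR-764-3p at 0.10 ± 0.20 (95% interval -0.34 to 0.53). MiR-1298-5p ran from 7.05 to 1028 CPM in KO-water and from 64.2 to 1504 CPM in WT-water, with its highest values in the libraries that were also highest in miR-204-5p, and its log2 fold change of -1.22 ± 1.10 was within that spread. Without KO-water 5 the log2 fold change of miR-1298-5p was -3.19.

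The KO-water libraries differed among themselves more than the WT-water libraries did. The SD of log2 CPM had a median over microRNAs of 0.530 in KO-water and 0.274 in WT-water, and it was larger in KO-water for 433 of 545 microRNAs. Within KO-water 3, 4 and 6 the median SD was 0.228, and within KO-water 1, 2 and 5 it was 0.245. At a mean of at least 100 CPM the widest in KO-water were miR-1298-5p, miR-219a-5p, both miR-677 arms and miR-3535, the last with 143, 675 and 2622 CPM in KO-water (lowest, median and highest of 6), against 813, 1950.1 and 3983 CPM in WT-water (of 7). The narrowest were miR-300-5p (-0.05 ± 0.12), miR-92b-3p (0.03 ± 0.11), miR-30c-5p, miR-127-3p (0.07 ± 0.14) and miR-485-3p (-0.11 ± 0.12). MiR-92b-3p, for example, averaged 550.0 ± 39.0 CPM in KO-water and 540.4 ± 36.2 CPM in WT-water. The spread sets what could be seen: the median half-width of the 95% intervals was 0.517 on the log2 scale, 300 of 545 microRNAs had an interval within 1 on either side of 0, and 64 had one within 0.5.

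Whether the genotype difference was the same under exercise was tested in 1 fit of 23 libraries that added KO-exercise (n = 5) and WT-exercise (n = 5), mice of the same genotypes after 4 weeks of exercise. Between KO-exercise and WT-exercise edgeR called 0 of 571 microRNAs (0%), with 8 (1.4%) at an unadjusted p below 0.05 and a lowest adjusted p of 0.997. The interaction, the exercise difference minus the water difference, was called for 0 of 571 (0%) by edgeR, with 101 (17.7%) at an unadjusted p below 0.05 and a lowest adjusted p of 0.190. With KO-water 3, 4 and 6 only, edgeR called 252 of 596, and with KO-water 1, 2 and 5 only it called 0 of 601, with 18 at an unadjusted p below 0.05; both fits were added after seeing the data. With all 6 KO-water libraries DESeq2 called 4, miR-181b-1-3p with a positive interaction and miR-532-5p, miR-132-5p and miR-129-2-3p with negative ones (adjusted p = 0.0496 each). Of the 20 leading microRNAs, 7 kept their sign under exercise and all 20 had a smaller fold change there, with a median absolute value of 0.165 under exercise and 1.196 under water; they were chosen for their difference under water, so a smaller value elsewhere is no finding about them.

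MiR-181b-1-3p had 7.96 to 16.7 CPM in KO-exercise and 4.66 to 12.4 CPM in WT-exercise, against 2.68 to 14.3 CPM in KO-water and 15.1 to 32.1 CPM in WT-water, scaled over the 23 libraries. Its interaction was 1.55 ± 0.41 (95% interval 0.70 to 2.40) on the log2 scale. MiR-218-5p had 28880.1 to 45146 CPM in KO-exercise and 18254 to 61075 CPM in WT-exercise, against 19271 to 73876 CPM in KO-water and 12728 to 18104 CPM in WT-water. The WT-exercise libraries thus spread nearly as widely as KO-water, and the log2 genotype difference under exercise was 0.01 (95% interval -0.72 to 0.74). MiR-342-3p likewise spanned 4101 to 9714 CPM in KO-exercise and 2533 to 15653 CPM in WT-exercise. MiR-129-2-3p had an interaction of -0.95 ± 0.25 (95% interval -1.47 to -0.44), miR-532-5p of -1.35 ± 0.36 (95% interval -2.104 to -0.60), miR-132-5p of -0.60 ± 0.18 (95% interval -0.97 to -0.23) and miR-18a-5p of -0.74 ± 0.22 (95% interval -1.21 to -0.28). The remaining microRNAs among the 10 with the smallest interaction p were miR-192-5p (-1.73), miR-466d-5p (-1.52), miR-582-3p (-0.94), miR-103-3p (-0.70) and miR-134-5p (-1.09), all with an edgeR adjusted p of 0.190. Under water their log2 fold changes were 1.40 (miR-192-5p, adjusted p = 0.0598), 0.64 (miR-582-3p, adjusted p = 0.0598) and 0.43 (miR-103-3p, adjusted p = 0.0793) over all 6 KO-water libraries. The interaction was 0.11 ± 0.99 (95% interval -1.93 to 2.15) for miR-219a-5p and 0.21 ± 0.63 (95% interval -1.09 to 1.51) for miR-362-3p, whose genotype differences under exercise were -1.24 (95% interval -2.80 to 0.32) and -0.73 (95% interval -1.71 to 0.26). The groups overlapped under exercise for both. MiR-219a-5p spanned 181 to 646 CPM in KO-exercise and 97.1 to 2311 CPM in WT-exercise. MiR-362-3p spanned 26.9 to 75.0 CPM in KO-exercise and 26.4 to 198 CPM in WT-exercise.

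**Figure D5:**
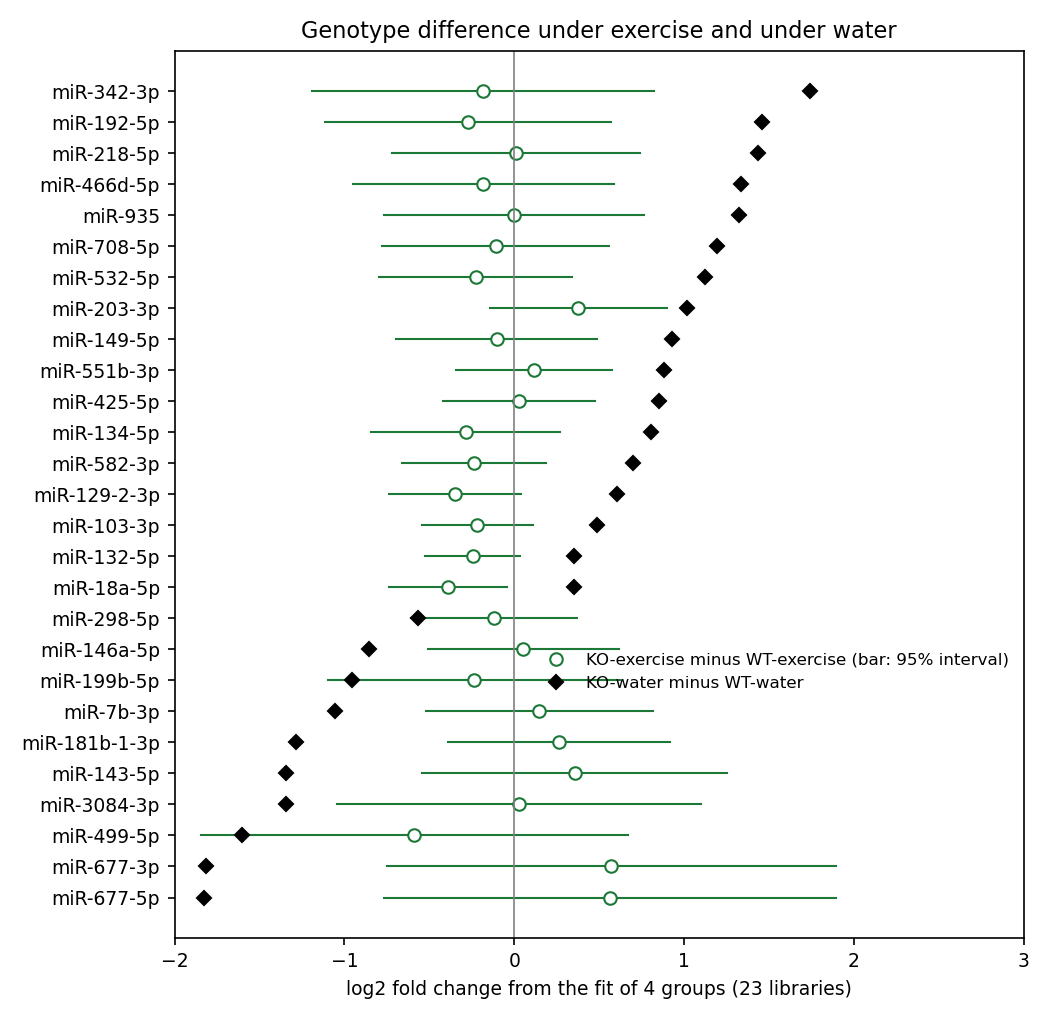
Genotype difference (log2 fold change, KO minus WT, fit of 23 libraries) for the 20 leading microRNAs and those with the smallest interaction p: open circles with bars, KO-exercise minus WT-exercise with its 95% interval; diamonds, KO-water minus WT-water. The circles lie near 0, from -0.59 to 0.57, and the diamonds reach from -1.83 to 1.74.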

How the data were processed

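Small RNA was sequenced on an Ion Torrent S5 from right hippocampus, per the labels' protocols. Raw counts of reads for 1966 mature microRNAs stand in 5 tables that the authors deposited; 511 had no count in the 13 water libraries. The build was GRCm38 (mm10), and the tools named are BWA, cutadapt 2.3, featureCounts of Subread, and limma 3.54.1, per the submitters' processing notes; strand use and the treatment of reads that match several microRNAs are not given in the sources used here. Columns were matched to samples by the code in the labels; 14 libraries stood in more than 1 table with identical counts. KO-water counts came from the table of knockout water and exercise, and WT-water counts from that of wild-type water and exercise; 1 column of the table of both genotypes under water, labelled KO-exercise, was left out. Between libraries of 1 group the chi-square per degree of freedom was 23.0 to 899.7, so each counted as 1 replicate.

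The counts were fitted with edgeR 4.0.16 in R 4.3.3 (filterByExpr by group, TMM, estimateDisp and glmQLFit with robust estimation, quasi-likelihood test). P-values were adjusted by Benjamini-Hochberg over all microRNAs tested, and a call needs an adjusted p below 0.05. SE was derived from the F statistic, and intervals cover 95%. Library values were compared with exact two-sided permutation tests. Alternatives used DESeq2 1.42.0 and limma 3.58.1, and the steps were tested on simulated data. Places are from the GRCm38 annotation.

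The libraries compared, the lists and the named microRNAs were chosen with earlier results of these data known. Named were the 10 smallest p-values in each direction, microRNAs whose groups did not overlap, the 5 most abundant, the 2 most abundant of each list, a fixed set of 13, the 5 widest and 5 narrowest in KO-water at a mean of at least 100 CPM and the 10 smallest interaction p-values, 74 in all. Some arms of the same hairpins, some microRNAs of the same seeds and some list members at an unadjusted p below 0.05 were named beside them, and others were not.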

Additional observations from a re-analysis of the deposited data

Results flagged for a closer look

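Of 156 groups of values examined, 9 held a library whose gap to its nearest neighbour exceeded Dixon's 95% critical value; chance flags about 1 in 20 groups. In KO-water all 3 cases were KO-water 5. It had 18652 CPM of miR-204-5p and 1028 CPM of miR-1298-5p, and 55.7 CPM of miR-200a-3p, each far above the other 5 KO-water libraries. Without KO-water 5 the log2 fold change was -0.76 for miR-204-5p, -3.19 for miR-1298-5p (adjusted p = 0.0387 by edgeR, over that fit's microRNAs) and -1.26 for miR-200a-3p (adjusted p = 0.0200 by edgeR). KO-water 5 was singled out for high values of these microRNAs, so lower fold changes without it follow from the choice. That fit called 161 microRNAs in all, and these adjusted p are no finding about these microRNAs. In WT-water 6 the level of miR-143-5p was 160.5 CPM, that of miR-191-5p 12682 CPM and that of miR-92b-3p 615 CPM, all above the other WT-water libraries. WT-water 1 had 3443 CPM of miR-132-3p and 154 CPM of miR-18a-5p, again above its group. WT-water 5 had 4237 CPM of miR-29a-3p, far below its group.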

How the results depend on the processing

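The count of calls between KO-water and WT-water depended on the method, and the cause was not tested. Higher and lower calls were 87 and 28 with DESeq2, 25 and 1 with DESeq2 size factors in edgeR, 18 and 5 with no filter on low counts, 39 and 3 at a mean of at least 10 CPM, 54 and 15 in a joint fit of all 6 groups, and 192 and 162 with KO-water 3, 4 and 6 only. They were 0 and 0 with limma-voom, with or without sample quality weights, without scaling factors, with the code letter as a term, within each letter and with KO-water 1, 2 and 5 only. Leaving out 1 library gave 0 to 100 higher and 0 to 61 lower calls; only leaving out KO-water 1 (81 and 37), KO-water 2 (88 and 20) or KO-water 5 (100 and 61) gave any. For the interaction with exercise DESeq2 called 1 and 3, a fit with KO-water 3, 4 and 6 only, added after seeing the data, called 252 of 596 in all, the matching fit with KO-water 1, 2 and 5 only called 0 of 601 by edgeR (18 at an unadjusted p below 0.05), and leaving out 1 library gave 0 higher and 0 to 1 lower calls, the 1 without WT-exercise 2. The difference in the miR-124-3p share ranged from -1.05 to 0.130 percentage points over leave-one-out values.

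Leaving out the scaling factors shifted the median of all log2 fold changes by -0.13. Of 1996 values of the 74 named microRNAs under alternatives, 1669 kept direction and side of the threshold, 270 passed it and 57 turned sign. Turned without scaling were miR-124-3p (-0.0319), miR-34a-5p (-0.0891), miR-1a-3p (-0.0986), miR-376a-3p (-0.11), miR-764-3p (-0.0591), miR-30c-5p (-0.0835), miR-92b-3p (-0.12) and miR-127-3p (-0.0657). With KO-water 1, 2 and 5 only these were miR-29b-3p (0.36), miR-29a-3p (0.25), miR-132-3p (0.0235), miR-34a-5p (-0.0269), miR-135a-5p (-0.32), miR-9-5p (0.15), miR-191-5p (-0.32), miR-126a-3p (-0.0785), miR-126a-5p (-0.25), miR-204-5p (0.0456), miR-376b-3p (0.0959), miR-136-5p (0.17), miR-34c-5p (-0.36) and miR-30d-5p (0.00889). With KO-water 3, 4 and 6 only they were miR-132-3p (0.00501), miR-300-5p (0.0729) and miR-485-3p (0.0336). Quality weights turned miR-29a-3p (0.19) and miR-34a-5p (-0.000333), the 10 CPM minimum miR-132-3p (0.0199) and miR-300-5p (0.0250), and no filter miR-376a-3p (-0.00417) and miR-92b-3p (-0.00829). Within letter G miR-34a-5p (-0.18) and miR-30c-5p (-0.0416) turned. Within letter H these were miR-132-3p (0.29), miR-212-3p (0.0646), miR-9-5p (0.12), miR-429-3p (0.31), miR-376a-3p (-0.0995), miR-34c-5p (-0.000032), miR-101a-3p (0.24), miR-300-5p (0.0527), miR-92b-3p (-0.0840) and miR-485-3p (0.00412). Leave-one-out values spanned 0 for miR-132-3p (-0.16 to 0.10), miR-204-5p (-0.76 to 0.0269), miR-29b-3p (-0.23 to 0.0605), miR-300-5p (-0.0676 to 0.0580), miR-30c-5p (-0.0189 to 0.15) and miR-764-3p (-0.0143 to 0.21).

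Same-numbered libraries of both genotypes did not deviate together: their correlations ran from -0.24 to 0.30, and 1 of 6 matched best with its own number. With the replicate number as a block the calls stayed at 0 higher and 0 lower, and only miR-204-5p turned sign (0.00138).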

Other observations

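With KO-water 1, 2 and 5 alone, some microRNAs that were not among the 20 leading ones had small p-values; they were picked after their values were seen. MiR-652-3p had 592, 727 and 582 CPM in KO-water 1, 2 and 5, against 454 to 569 CPM in WT-water, a log2 fold change of 0.34 (edgeR adjusted p = 0.867), while KO-water 3, 4 and 6 had 441, 469.6 and 484 CPM. MiR-497a-5p had 269, 153 and 212 CPM in KO-water 1, 2 and 5 and 224, 247 and 249.9 CPM in KO-water 3, 4 and 6, against 249 to 348 CPM in WT-water. MiR-7a-2-3p stood at 201, 96.6 and 192 CPM in KO-water 1, 2 and 5, against 197 to 254 CPM in WT-water, and KO-water 2 alone was far below that range. MiR-541-3p had 24.3, 40.7 and 26.7 CPM in KO-water 1, 2 and 5, against 19.4 to 26.8 CPM in WT-water, again with KO-water 2 the farthest out.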
